A study of Mus musculus with 12 samples.

Results

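Described here are 10 imprinted genes of 7 mouse domains whose germline methylation mark is set on the maternal chromosome, which are Mest, Ndn with Snrpn, Peg3, Gnas with the antisense RNA Nespas, Grb10, Plagl1, and Peg10 with Sgce. Members were the rows whose gene column equals one of these names in the deposited tables of poly(A) mRNA and of long RNA. This gave 10 of 36883 rows in mRNA and 9 of 36883 rows in long RNA. In long RNA the Snrpn row carries a second gene name, RP24-439I22.1, and is described beside the members without being counted. Drosha-deficient mouse embryonic stem (ES) cells were compared with wild-type ES cells, both grown in serum with leukemia inhibitory factor. Drosha is the nuclear RNase III enzyme of the microRNA pathway, and the title of the series concerns its part in maintaining CG methylation. Each genotype had 1 library per RNA fraction, so no difference here has a replicate check and no test of the genotypes was possible. The labels of the RNA samples give the genotype alone. Those of the matching DNA samples name AB1 cells of the 129Sv/Ev background as the wild type, and the Drosha-deficient cells as derived from them. The sources used here do not say how Drosha was disrupted or whether a line is 1 clone.

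Imprinted genes are expressed from 1 parental copy because a methylation mark laid down in egg or sperm is kept on that copy through the cell divisions of the embryo. In the domains described here the mark comes from the egg. The marked maternal promoter is silent, and the gene or RNA that starts there is expressed from the paternal chromosome. Keeping the mark needs the maintenance methyltransferase DNMT1 and, at many of these regions, the zinc finger protein ZFP57, which binds the methylated hexamer TGCCGC and recruits the corepressor TRIM28. ES cell lines in culture are known to lose or gain such marks at single domains. The methylation samples of the series were not analysed here.

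Promoter windows of 300 bases from RefSeq (GRCm38.p6, 250 bases before to 50 after an annotated start) were found for 7 of the 10 members, 16 windows in all, and not for Nespas, Peg10 and Sgce. The hexamer TGCCGC, searched on both strands, lay in 5 of the 16 windows, which belong to 4 members, Mest, Snrpn, Grb10 and Plagl1. Of all 32851 RefSeq promoter windows of this length, 11.6% held it. The 4 windows below are shown because Mest and Grb10 were called in opposite directions, while Snrpn and Plagl1 hold the same letters and were called in neither mRNA nor long RNA. Capitals mark the hexamer, which in these windows reads as its reverse complement GCGGCA. A second Mest window overlaps the one shown and holds the same 2 hexamers. The windows are Mest at chr6:30737800-30738099 (plus strand), Grb10 at chr11:12037371-12037670 (minus strand), Snrpn at chr7:60005150-60005449 (minus strand) and Plagl1 at chr10:13090582-13090881 (plus strand).
Mest: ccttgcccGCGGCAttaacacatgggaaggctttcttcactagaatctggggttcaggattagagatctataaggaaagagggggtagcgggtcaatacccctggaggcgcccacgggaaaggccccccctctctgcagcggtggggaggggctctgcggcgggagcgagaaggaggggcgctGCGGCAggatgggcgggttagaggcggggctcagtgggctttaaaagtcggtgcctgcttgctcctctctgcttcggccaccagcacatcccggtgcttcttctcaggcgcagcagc
Grb10: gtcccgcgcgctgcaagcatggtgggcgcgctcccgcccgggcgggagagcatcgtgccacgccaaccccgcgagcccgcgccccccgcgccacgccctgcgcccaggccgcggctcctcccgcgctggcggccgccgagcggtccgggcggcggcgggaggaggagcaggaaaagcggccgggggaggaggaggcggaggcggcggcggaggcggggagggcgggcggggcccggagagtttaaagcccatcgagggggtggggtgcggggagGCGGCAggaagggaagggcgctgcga
Snrpn: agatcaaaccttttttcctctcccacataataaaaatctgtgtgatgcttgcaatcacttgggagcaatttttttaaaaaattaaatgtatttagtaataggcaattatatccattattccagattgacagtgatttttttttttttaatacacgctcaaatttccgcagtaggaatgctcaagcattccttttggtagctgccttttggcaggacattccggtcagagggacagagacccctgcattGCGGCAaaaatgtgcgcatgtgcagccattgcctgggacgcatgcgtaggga
Plagl1: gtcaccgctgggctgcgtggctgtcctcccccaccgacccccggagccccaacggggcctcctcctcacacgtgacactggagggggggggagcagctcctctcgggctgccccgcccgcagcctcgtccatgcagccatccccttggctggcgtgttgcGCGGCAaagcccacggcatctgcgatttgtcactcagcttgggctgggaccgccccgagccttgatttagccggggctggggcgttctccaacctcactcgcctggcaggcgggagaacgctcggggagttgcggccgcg
The Grb10 window shown held 45 CG dinucleotides, more than 98.1% of all windows, and the Plagl1 window held 26. A second Grb10 window, at chr11:12027922-12028221 (minus strand), held 9 CG dinucleotides and no hexamer. The Mest window shown held 17 and the Snrpn window shown 7, which is the median of all windows. A further Mest window held 8 CG dinucleotides and no hexamer. The other Snrpn windows held 2, 3 and 4 CG dinucleotides and no hexamer. Of the members' 16 windows 12, from 6 members, lay above the median of all windows. The Gnas windows held between 16 and 40 CG dinucleotides and no hexamer. A match is a run of letters and not a measured binding site. Whether a window lies in the methylated region of its domain was not tested.

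Levels are FPKM, read fragments divided by transcript length and library size, as deposited. The log2 difference is log2 of the Drosha-deficient over the wild-type value after adding a pseudocount of 1 FPKM to each, which shrinks differences of low levels. Fold values are ratios without the pseudocount. A row passed if its deposited status was OK and 1 library or both had 1 FPKM or more. The call was higher or lower in Drosha-deficient cells at a log2 difference of at least 1 in size, which is 2-fold. From the steps of the lowest values, the deposited FPKM were scaled to about 24300000 fragments in Drosha-deficient and 21600000 in wild-type mRNA. In the same order the estimates were 21900000 and 18400000 in long RNA, and 2960000 and 2660000 in short RNA. Whether the libraries held that many fragments is not known, since the scaling is not given. Drosha stood at 6.22 FPKM in Drosha-deficient and 42.1 FPKM in wild-type mRNA, and at 4.34 FPKM in Drosha-deficient and 21.2 FPKM in wild-type long RNA, which matched the labels. Of 8 ES cell markers in mRNA Fgf4 was higher, against 8.64% of all rows that passed, and none was lower, against 7.93%. Of the 7 with a row in long RNA none was called, where 6.26% of all rows were higher and 6.89% lower. Of 8 fibroblast markers 6 were lower in each of these fractions, against 7.93% of all rows in mRNA and 6.89% in long RNA. None was higher in either, against 8.64% and 6.26%. Col1a2, Col3a1 and Postn in both fractions, and Acta2 and Col1a1 in long RNA, passed through the wild-type library alone. Such rows could be counted as lower and not as higher. The summed level of the 8 fibroblast markers was 16.2 FPKM in Drosha-deficient and 185 FPKM in wild-type mRNA. In long RNA it was 6.49 FPKM in Drosha-deficient and 96.6 FPKM in wild-type cells. In mRNA the 8 ran from 0.0147 FPKM (Postn) to 5.79 FPKM (Tagln) in Drosha-deficient cells and from 0.680 FPKM (Fbn1) to 65.02 FPKM (Tagln) in wild-type cells. The part of these markers in the differences of the imprinted genes was not tested. In bulk RNA, fewer cells of a type and less RNA per cell cannot be told apart.

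The imprinted genes did not move together (the plot of member levels). In mRNA 9 members passed, all but Peg10, whose row has the status FAIL. Mest and Nespas were higher in Drosha-deficient cells, 2 of 9, against 8.64% of the 14752 rows that passed. Nespas passed in mRNA through the Drosha-deficient library alone, so it could be counted as higher and not as lower. Grb10 was lower, 1 of 9, against 7.93% of those rows. The median log2 difference of the 9 was 0.31, against 0.01 over all rows that passed. In long RNA all 9 members with a row of their own passed. Nespas was higher, 1 of 9, against 6.26% of 13933 rows. Grb10, Peg10 and Sgce were lower, 3 of 9, against 6.89% of those rows. Peg10 and Sgce belong to the same domain and are not independent cases. The median of the 9 was -0.16, against -0.04 over all rows that passed. The middle 80% of all rows that passed lay between -0.89 and 0.91 in mRNA and between -0.84 and 0.73 in long RNA.

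**Figure D1:**
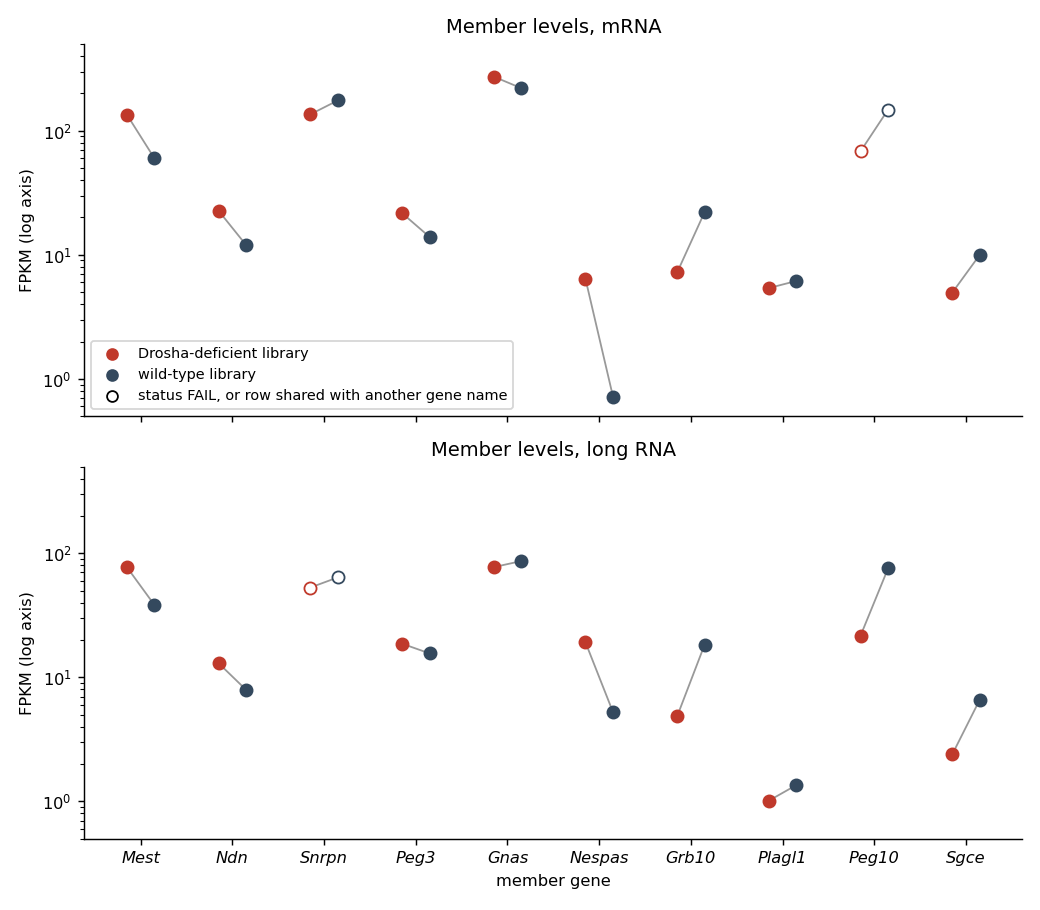
FPKM of each member on a log axis in mRNA and in long RNA, with the Drosha-deficient library at the left and the wild-type library at the right of each pair; open points mark the failed Peg10 row of mRNA and the Snrpn row of long RNA that carries a second name. Nespas climbs and Grb10 drops toward the Drosha-deficient side in both fractions, with 19.2 FPKM in Drosha-deficient and 5.26 FPKM in wild-type long RNA for Nespas.

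Gnas had the highest level in each of the 4 libraries of mRNA and long RNA. Below it in Drosha-deficient mRNA stood Snrpn and Mest, both at 135 FPKM. In wild-type mRNA it was followed by Snrpn at 175 FPKM, the failed Peg10 row at 148 FPKM and Mest at 60.0 FPKM. The lowest member was Sgce in Drosha-deficient mRNA (4.96 FPKM) and Nespas in wild-type mRNA (0.721 FPKM). In long RNA Plagl1 was the lowest in both genotypes. With 1 library per genotype there is no spread by which neighbours in this order could be told apart.

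Mest encodes a hydrolase-like protein of the mesoderm that affects growth and is expressed from the paternal chromosome. Its row (chromosome 6, 30723547 to 30896794, mm10/GRCm38) had 135 FPKM in the Drosha-deficient and 60.0 FPKM in the wild-type mRNA library. In long RNA it had 77.2 FPKM in the Drosha-deficient and 38.3 FPKM in the wild-type library. The Drosha-deficient value was the larger one in both fractions. Mest was called higher in mRNA, 2.25-fold with a log2 difference of 1.15. In long RNA the ratio was 2.01 and the log2 difference 0.99, just under the size for a call.

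Copg2, a coat protein subunit gene that overlaps Mest and has the same row coordinates, was called in neither fraction. It had 19.4 FPKM in Drosha-deficient and 24.7 FPKM in wild-type mRNA, and 26.0 FPKM in Drosha-deficient against 28.2 FPKM in wild-type long RNA. Cep41, a centrosomal protein gene next to this row, had 9.59 FPKM in Drosha-deficient and 7.10 FPKM in wild-type mRNA and was not called either. The sources used here do not say whether reads were counted by strand, so reads from a stretch where Mest and Copg2 overlap may not be told apart.

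Peg10 and Sgce were lower in Drosha-deficient long RNA. Peg10, a paternally expressed gene derived from a retrotransposon and needed for the placenta, lies 101 bases from Sgce, the gene of epsilon-sarcoglycan, and both are read outwards from a shared promoter region. Peg10 (chromosome 6, 4747306 to 4760517) had 21.7 FPKM in the Drosha-deficient and 75.6 FPKM in the wild-type long RNA library. It was thus 3.49-fold lower in Drosha-deficient cells, with a log2 difference of -1.76. The failed mRNA row listed 68.3 FPKM for Drosha-deficient and 148 FPKM for wild-type cells. For that row the authors' deposited table sets the log2 fold change to 0, and no call was made from it.

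Sgce (chromosome 6, 4674350 to 4747204) had 2.40 FPKM in the Drosha-deficient and 6.62 FPKM in the wild-type long RNA library. It was 2.76-fold lower in Drosha-deficient cells, with a log2 difference of -1.17. In mRNA it had 4.96 FPKM in Drosha-deficient and 10.003 FPKM in wild-type cells, a log2 difference of -0.89 that did not reach the size for a call. Of 9 neighbouring genes listed for this domain 5 passed in each fraction, and none was called. Casd1, a sialic acid O-acetyltransferase gene next to Sgce, had 11.1 FPKM in Drosha-deficient and 5.13 FPKM in wild-type mRNA. In long RNA Casd1 had 8.77 FPKM in Drosha-deficient and 4.66 FPKM in wild-type cells. Its log2 differences, 0.98 and 0.79, had the opposite sign to those of the imprinted pair without reaching a call. The paraoxonase gene Pon2 had 5.21 FPKM in Drosha-deficient and 9.54 FPKM in wild-type mRNA, a log2 difference of -0.76, and -0.13 in long RNA.

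**Figure D2:**
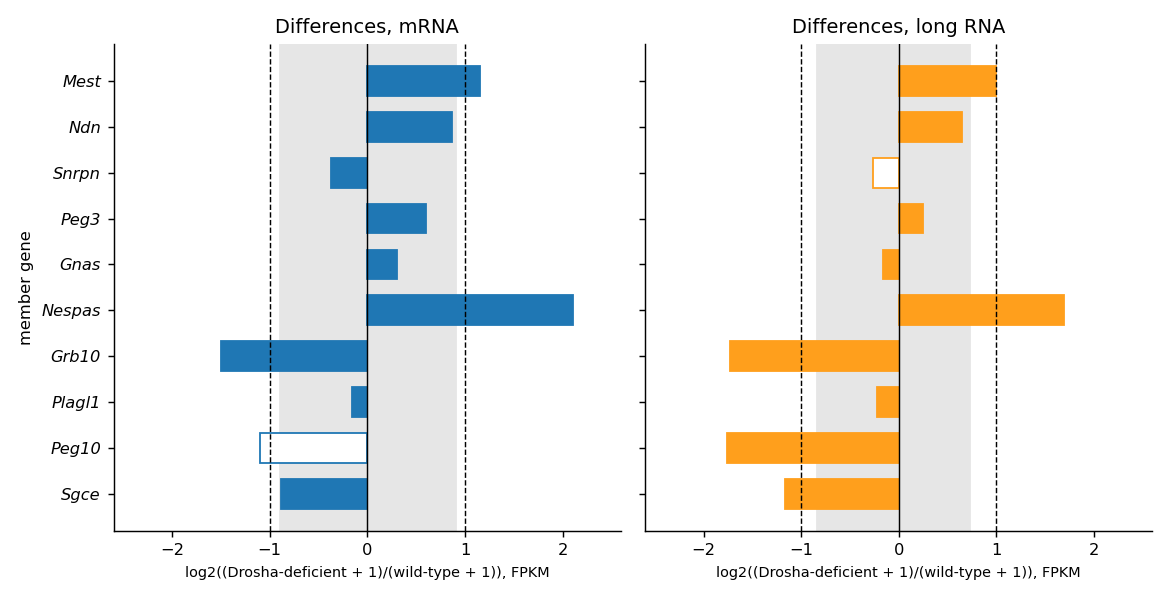
Log2 difference of each member, Drosha-deficient over wild type, in mRNA and in long RNA; dashed lines mark 2-fold, the grey band holds the middle 80% of all rows that passed, and open bars are the failed Peg10 row and the shared Snrpn row. Nespas (2.11 and 1.69) lies past the line for higher rows and Grb10 (-1.50 and -1.73) past the line for lower rows in both fractions.

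Grb10, an adaptor that restrains insulin and growth factor signalling, is expressed mainly from the maternal chromosome outside neurons, although its germline mark is maternal too. Its row (chromosome 11, 11930508 to 12038683) had 7.21 FPKM in the Drosha-deficient and 22.1 FPKM in the wild-type mRNA library. In long RNA it had 4.85 FPKM in the Drosha-deficient and 18.4 FPKM in the wild-type library. It was 3.07-fold lower in Drosha-deficient mRNA and 3.79-fold lower in Drosha-deficient long RNA. Among the members Grb10 was the one called lower in both fractions.

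Ddc, the aromatic amino acid decarboxylase gene beside Grb10, was called higher in long RNA, with 19.3 FPKM in Drosha-deficient and 8.98 FPKM in wild-type cells and a log2 difference of 1.02. In mRNA it had 46.7 FPKM in Drosha-deficient and 24.7 FPKM in wild-type cells, a difference of 0.89 that was not called. Cobl, an actin nucleator gene of the same region, had 16.8 FPKM in Drosha-deficient and 12.5 FPKM in wild-type mRNA and was called in neither fraction.

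Nespas, a non-coding RNA named Gnasas1 in RefSeq (chromosome 2, 174281237 to 174295436), starts in a maternally methylated region of the Gnas locus and runs antisense to the Nesp transcripts. It is expressed from the paternal chromosome. Nespas had 6.41 FPKM in the Drosha-deficient and 0.721 FPKM in the wild-type mRNA library. The long RNA values were 19.2 FPKM in the Drosha-deficient and 5.26 FPKM in the wild-type library. It was 8.89-fold higher in Drosha-deficient mRNA and 3.65-fold higher in Drosha-deficient long RNA. Its log2 differences, 2.11 and 1.69, were the highest of the members in each fraction. In mRNA the row passed through the Drosha-deficient library alone, so it could enter the count as higher and not as lower.

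Gnas, whose main product is the stimulatory G protein subunit expressed from both chromosomes in most tissues, was called in neither fraction. It had 273 FPKM in Drosha-deficient and 220.3 FPKM in wild-type mRNA, a log2 difference of 0.31. In long RNA it had 77.3 FPKM in Drosha-deficient and 86.5 FPKM in wild-type cells, a log2 difference of -0.16. The Gnas row pools the transcripts of the locus, so its Nesp and XLas forms have no values of their own. Nespas and Gnas overlap and have the same row coordinates, and reads from the overlap may not be told apart. Npepl1, an aminopeptidase gene of the same region, was lower in mRNA, with 8.72 FPKM in Drosha-deficient and 18.9 FPKM in wild-type cells. The log2 difference of Npepl1 was -1.04 in mRNA, and -0.68 in long RNA, where it was not called.

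Ndn and Snrpn lie in the domain that is affected in Prader-Willi syndrome. Ndn encodes necdin, a neuronal growth suppressor, and Snrpn encodes the SmN protein of the spliceosome and starts at the imprinting centre. Ndn (chromosome 7, 62348277 to 62349928) had 22.6 FPKM in Drosha-deficient and 12.0 FPKM in wild-type mRNA. In long RNA it had 13.0 FPKM in Drosha-deficient and 7.93 FPKM in wild-type cells. The gene has no intron, so its fragments could be estimated from the row span, at about 908 in Drosha-deficient and 428 in wild-type mRNA. The exact Poisson intervals at 95%, which cover counting error only, ran from 21.2 to 24.1 FPKM in Drosha-deficient and from 10.9 to 13.2 FPKM in wild-type mRNA. The intervals did not overlap, and those of long RNA, from 11.9 to 14.2 FPKM in Drosha-deficient and from 6.95 to 8.99 FPKM in wild-type cells, did not either. The log2 differences of 0.86 in mRNA and 0.65 in long RNA lay within the middle 80% of all rows and were not called.

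Snrpn (chromosome 7, 59307924 to 60140219) had 135 FPKM in Drosha-deficient and 175 FPKM in wild-type mRNA, a log2 difference of -0.37. The long RNA row that carries both names had 52.9 FPKM in Drosha-deficient and 63.9 FPKM in wild-type cells, a log2 difference of -0.27. Neither value reached the size for a call. Mkrn3, a paternally expressed and intronless makorin ubiquitin ligase gene near Ndn, had 3.16 FPKM in Drosha-deficient and 3.74 FPKM in wild-type mRNA. Its counting intervals, from 2.74 to 3.64 FPKM in Drosha-deficient and from 3.25 to 4.29 FPKM in wild-type mRNA, overlapped. Peg12, another intronless gene of the domain, had 1.85 FPKM in Drosha-deficient and 1.72 FPKM in wild-type mRNA, and Magel2 stood under 1 FPKM in both genotypes. The counting intervals of Peg12 and of Magel2 overlapped between the genotypes in mRNA and in long RNA. Ube3a, the ubiquitin ligase gene expressed from the maternal chromosome in neurons, had 21.9 FPKM in Drosha-deficient and 13.7 FPKM in wild-type mRNA and was called in neither fraction.

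Peg3, a paternally expressed zinc finger gene of growth and maternal behaviour (chromosome 7, 6703892 to 6730421), had 21.7 FPKM in Drosha-deficient and 13.9 FPKM in wild-type mRNA. The long RNA values were 18.7 FPKM in Drosha-deficient and 15.6 FPKM in wild-type cells. Its log2 differences were 0.60 and 0.25, and neither was a call. Usp29, a paternally expressed deubiquitinase gene of the same domain, had 1.19 FPKM in Drosha-deficient and 1.30 FPKM in wild-type mRNA.

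Plagl1, a zinc finger regulator of other imprinted genes (chromosome 10, 13090691 to 13131694), had 5.40 FPKM in Drosha-deficient and 6.15 FPKM in wild-type mRNA. Its long RNA row had 1.01 FPKM in Drosha-deficient and 1.35 FPKM in wild-type cells, near the minimum for passing. Its log2 differences were -0.16 and -0.23 and were not called. Ltv1, a ribosome biogenesis gene beside Plagl1, had 51.0 FPKM in Drosha-deficient and 48.0 FPKM in wild-type mRNA and was not called.

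**Figure D3:**
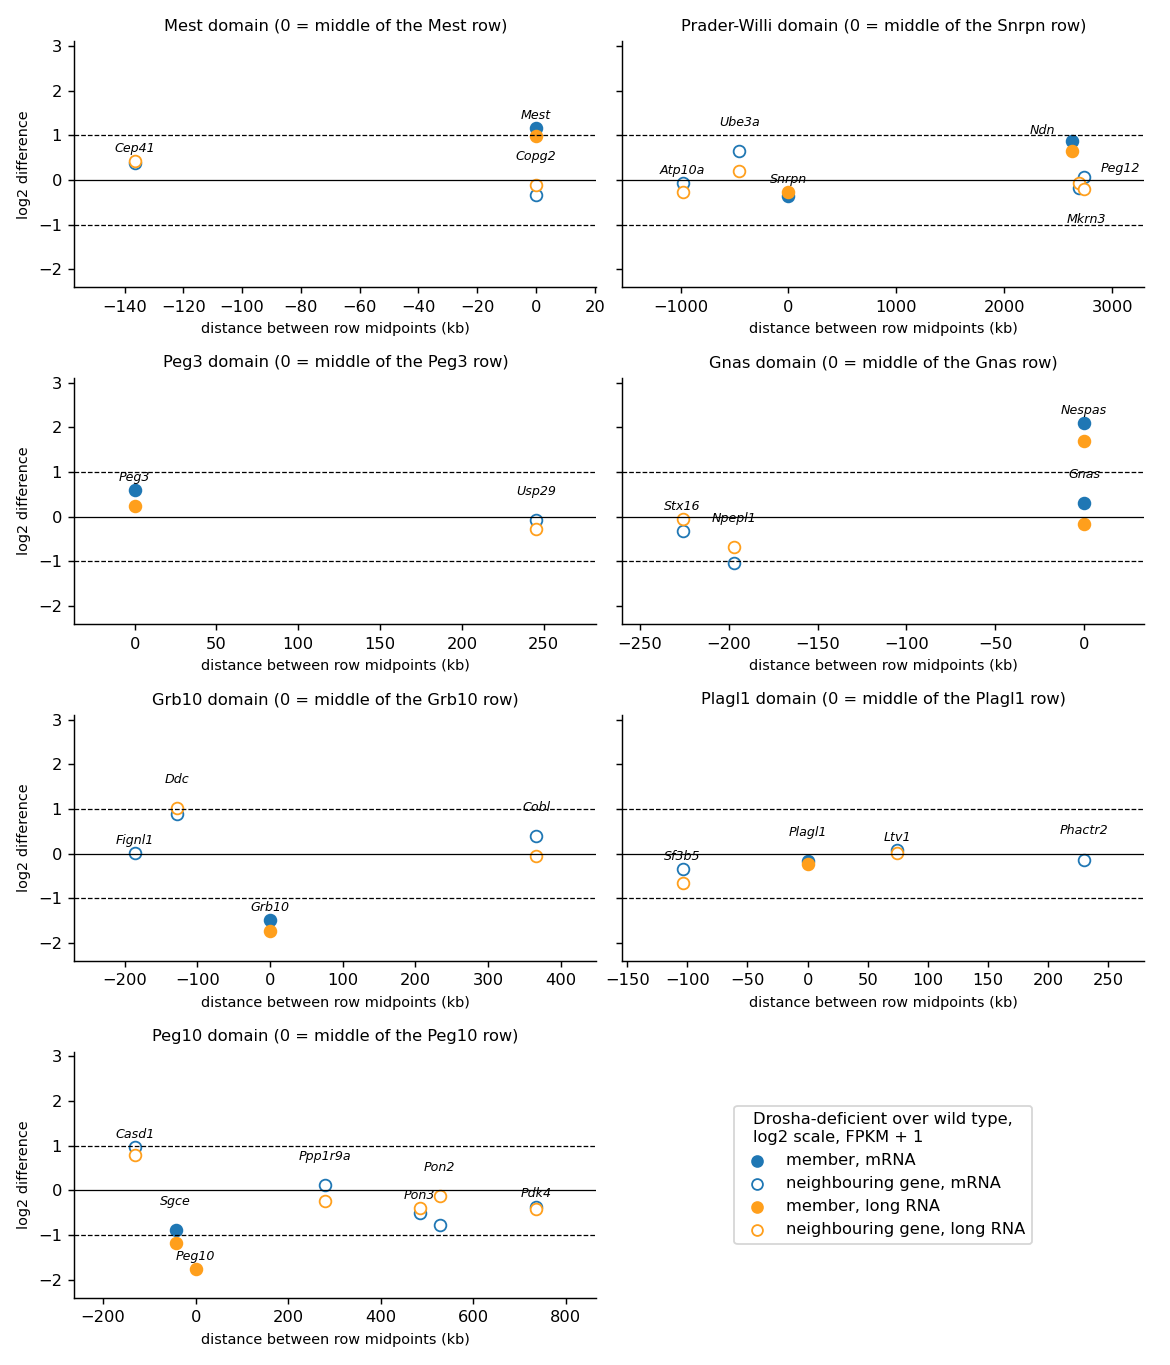
Log2 difference, Drosha-deficient over wild type, against the distance in kb between row midpoints, counted from 1 member per domain, with filled points for members and open points for neighbouring genes in mRNA and in long RNA; rows that did not pass are left out, the Snrpn point of long RNA is the row with a second name, and dashed lines mark 2-fold. Grb10 (-1.50 and -1.73) and Nespas (2.11 and 1.69) lie past the lines, while most neighbours lie between them.

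Of 37 neighbouring genes listed for the 7 domains, some of them paternally expressed themselves (such as Mkrn3 and Usp29), 32 had a row. In mRNA 20 passed, of which Npepl1 was lower (7.93% of all rows) and none was higher (8.64%). In long RNA 18 passed, of which Ddc was higher (6.26% of all rows) and none was lower (6.89%). The median log2 difference of the neighbours that passed was -0.06 in mRNA, while in long RNA it was -0.12. The 8 members known to be expressed from the paternal chromosome did not share 1 direction. Of the 7 that passed in mRNA 2 were higher (8.64% of all rows) and none was lower (7.93%), with a median of 0.60, and one of the higher ones is Nespas, which passed through the Drosha-deficient library alone. Of the 7 that passed in long RNA 1 was higher (6.26% of all rows) and 2 were lower (6.89%), with a median of 0.25. In the authors' deposited table none of the 19 member rows with status OK, the shared Snrpn row included, was marked significant. The lowest q-value in the authors' deposited table was 0.182, for Peg10 in long RNA. A p-value under 0.05 stood in the authors' deposited table for 3 of the 19 rows, Peg10 in long RNA and Grb10 in both fractions. These values compare 1 library with 1 library and not the genotypes. Drosha itself, lower in both fractions, was not marked significant in the authors' deposited table either. A missing mark there thus does not show that a member was unchanged.

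The gap between the mRNA and the long RNA difference was 0.16 for Mest, 0.23 for Grb10, 0.28 for Sgce, 0.42 for Nespas and 0.47 for Gnas. Over the 13322 rows that passed in both fractions the middle 80% of these gaps lay between -0.41 and 0.51. No member that passed in both fractions lay outside that range. The failed Peg10 row gave a gap of 0.65. Levels were not compared across fractions, which were normalized separately.

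Several microRNA genes lie in these domains. Mir335 lies inside Mest. Mir296 and Mir298 lie past the end of Nespas, with Mir298 at a distance of 13.7 kb. Their mature RNAs (RefSeq, GRCm38.p6) are printed with the seed, bases 2 to 8 that pair with targets, in capitals, since these genes lie beside or inside the members called higher in mRNA. All 6 seeds differ.
mmu-miR-335-5p: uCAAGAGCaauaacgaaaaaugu
mmu-miR-335-3p: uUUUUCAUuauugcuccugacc
mmu-miR-296-5p: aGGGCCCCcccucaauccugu
mmu-miR-296-3p: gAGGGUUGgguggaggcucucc
mmu-miR-298-5p: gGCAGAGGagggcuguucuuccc
mmu-miR-298-3p: gAGGAACUagccuucucucagcuu
In short RNA Mir296 (chromosome 2, 174267047 to 174267125) had 146 FPKM in Drosha-deficient and 4363 FPKM in wild-type cells, 29.9-fold lower. Mir298 (chromosome 2, 174267504 to 174267585) had 227 FPKM in Drosha-deficient and 7353 FPKM in wild-type short RNA, 32.4-fold lower. Both were lower in long RNA as well. There Mir296 had 21.9 FPKM in Drosha-deficient and 70.4 FPKM in wild-type cells, and Mir298 had 9.92 FPKM in Drosha-deficient and 49.96 FPKM in wild-type cells. In mRNA Mir298 was lower too (log2 difference -1.29) and Mir296 was not called (0.66). Nespas, in the same long RNA libraries, was higher.

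In short RNA 4 of the 10 members passed. On the deposited scale Mest, Snrpn and Peg10 were lower, 3 of 4, against 18.4% of 2597 rows, and none was higher, against 14.8%, which did not hold after rescaling to TPM. Mest had 6.24 FPKM in the Drosha-deficient and 32.7 FPKM in the wild-type short RNA library, a log2 difference of -2.22, the opposite direction to its mRNA. The row of Mest encloses Mir335, which has no row of its own. Snrpn had 109 FPKM in Drosha-deficient and 388 FPKM in wild-type short RNA, a log2 difference of -1.82. Its row spans 206 small nucleolar RNA genes of the RefSeq table. Peg10 had 7.88 FPKM in Drosha-deficient and 30.5 FPKM in wild-type short RNA, a log2 difference of -1.83, and its row encloses no microRNA or small nucleolar RNA gene of that table. Gnas had 4.73 FPKM in Drosha-deficient and 6.75 FPKM in wild-type short RNA and was not called. The other 6 members had the status NOTEST, with levels from 0.0712 to 1.93 FPKM in Drosha-deficient and from 0.159 to 1.803 FPKM in wild-type short RNA. A short RNA value of a coding gene is that of its whole row, with any small RNA genes inside.

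The calls of the members in short RNA depended on the scaling. The FPKM of all short RNA rows summed to 873840 in Drosha-deficient and 4060450 in wild-type cells. Of these sums, rows named as microRNA genes held 289509 in Drosha-deficient and 3384600 in wild-type cells. All other rows summed to 584332 in Drosha-deficient and 675848 in wild-type cells, so the sums differed mostly in the microRNA rows. After rescaling each library to the same sum (TPM, chosen after seeing the data), the log2 difference was -0.16 for Mest, 0.24 for Peg10, 0.38 for Snrpn and 1.27 for Gnas. With this scaling the median of all rows was 1.64, and none of the 4 members was called lower and Gnas was called higher. After centring on the median of all rows instead, the values were -2.19 for Mest, -1.80 for Peg10, -1.79 for Snrpn and -0.41 for Gnas. Mir296 and Mir298 were lower under TPM too, at -2.68 and -2.80.

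**Figure D4:**
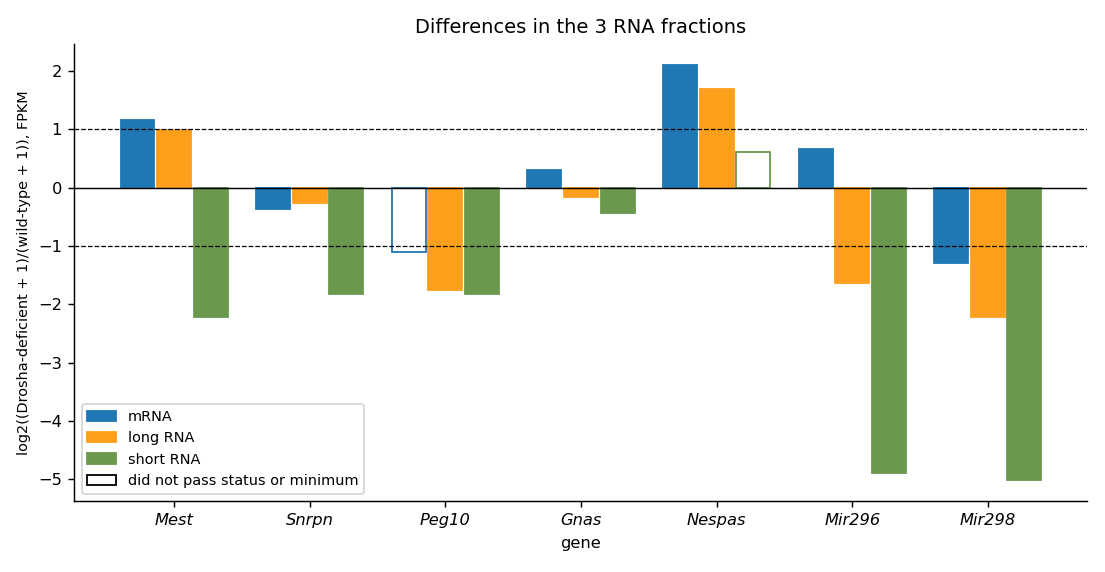
Log2 difference, Drosha-deficient over wild type, of 5 members and of the microRNA genes Mir296 and Mir298 in mRNA, long RNA and short RNA; dashed lines mark 2-fold and open bars did not pass. Mest stands at 1.15 in mRNA, 0.99 in long RNA and -2.22 in short RNA. In short RNA the microRNA genes stand at -4.89 and -5.01. Rescaled to TPM (not drawn), the short RNA values are -0.16 for Mest, 0.38 for Snrpn and 0.24 for Peg10. On that scale the median of all rows is 1.64.

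Of 11 listed factors that keep the marks of these domains 10 passed in each fraction. In mRNA 1 of them was higher, near the 8.64% of all rows, and in long RNA 2 were higher, against 6.26%, and none was lower in either, against 7.93% and 6.89%. The medians were 0.45 in mRNA and 0.33 in long RNA. Zfp57 had 209 FPKM in Drosha-deficient and 129 FPKM in wild-type mRNA, a log2 difference of 0.69. In long RNA it was higher, with 112 FPKM in Drosha-deficient and 46.0 FPKM in wild-type cells and a log2 difference of 1.27. Arid4a, a chromatin factor tied to the Prader-Willi imprinting centre in mice, was higher in both fractions. It had 20.8 FPKM in Drosha-deficient and 6.99 FPKM in wild-type mRNA, and 16.3 FPKM in Drosha-deficient against 6.78 FPKM in wild-type long RNA. Trim28, the corepressor, had 840 FPKM in Drosha-deficient and 638 FPKM in wild-type mRNA and was not called. Dppa3, which guards maternal marks in the zygote, had 33.3 FPKM in Drosha-deficient and 63.6 FPKM in wild-type mRNA, a log2 difference of -0.91 that was not called.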

How the data were processed

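The series holds 12 samples, 9 of RNA and 3 for methylation. The 6 RNA libraries of Drosha-deficient and wild-type ES cells were used; those of Dnmt1-deficient cells and methylation data were not analysed here. Trizol RNA was split into long and short RNA, an oligo-dT kit gave the mRNA, and a small RNA library protocol followed, per the labels' protocols. No sample is labelled long RNA, so by elimination that table was taken as the samples titled total RNA.

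The authors deposited 3 Cuffdiff tables with FPKM, a log2 fold change, a test score and a p-value and q-value per row. The submitters' processing notes name bcl2fastq (1.8.4), TopHat2 (2.0.10), Cufflinks (2.1.1), Cuffdiff and mm10/GRCm38. Annotation, scaling and strand setting are not given in these sources. Deposited p-values rest on 1 library per genotype.

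Log2 differences, calls, medians and counts over all rows of each table were computed with Python 3.11.15 and pandas 2.3.3. A count model is not suited to FPKM and was not run. Depth was estimated from values that stand for 1 fragment in rows of 800 to 1500 bases, taking the row span as transcript length. Named were the 10 members and, from lists of neighbours, microRNA genes, other imprinted genes and imprint factors, those past 2-fold or inside a domain; other list genes with values (such as Trim28, Dppa3, Impact and the markers) were named after their values were seen. The members and lists were chosen with earlier results of these data known. Pseudocount, minimum, status and scaling were varied for the members, in short RNA by a choice made after seeing the data; for the microRNA genes pseudocount and TPM were.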

Additional observations from a re-analysis of the deposited data

Results flagged for a closer look

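Mest stood out because its rows went opposite ways in 2 RNA fractions. Its log2 difference, Drosha-deficient over wild type, was 1.15 in mRNA and -2.22 in short RNA. The levels were 135 FPKM in Drosha-deficient and 60.0 FPKM in wild-type mRNA, and 6.24 FPKM in Drosha-deficient and 32.7 FPKM in wild-type short RNA. The short RNA value is that of the whole row, which encloses Mir335, a microRNA gene without a row of its own. Rescaled to TPM, the Mest difference was -0.16 in short RNA, where the median of all rows was 1.64, and the opposite call was gone; centred on the median of all rows it was -2.19. The difference between the fractions was not tested, since each holds 1 library per genotype.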

How the results depend on the processing

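No paired analysis was possible because each genotype has 1 library per fraction and the labels give no shared replicate numbers. Grb10 was lower in both fractions under every setting run for single members (pseudocounts of 0.1 and 5, TPM, and centring on the median of all rows), and Nespas was higher except in mRNA with a pseudocount of 5, where its value was just under 2-fold. With that pseudocount 1 member was higher in mRNA, and Sgce in long RNA, at -0.65, was no longer called. Mest in long RNA passed 2-fold with a pseudocount of 0.1 (1.01), after rescaling to TPM (1.10) and after centring (1.03), which gave 2 members higher in long RNA in each case. With a minimum of 5 FPKM, which leaves out Plagl1, the median in long RNA was 0.04. With the failed Peg10 row included, a choice made after seeing the data, 2 members were lower in mRNA and the median was 0.07. Under both pseudocounts, TPM and centring, 35 of 36 values of single members in mRNA and 32 of 36 in long RNA kept their call. All settings for the members in short RNA were chosen after seeing the data. There TPM gave 0 members lower and 1 higher (Gnas, 1.27) with a median of 0.31, and turned Peg10 to 0.24 and Snrpn to 0.38, while the median of all rows was 1.64. The short RNA median was -1.60 with a pseudocount of 5 and -1.38 with every status except FAIL, with 3 members lower in both cases. In long RNA 1 fragment on 1 kb stands for 0.0457 FPKM in Drosha-deficient and 0.0543 FPKM in wild-type cells, and rows of low level, such as Plagl1 and Airn there, are less precise than rows of high level.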

Other observations

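Of 11 other listed genes whose germline mark is maternal, 6 passed in mRNA and 7 in long RNA. In each fraction 1 was lower, against 7.93% of all rows in mRNA and 6.89% in long RNA, and none was higher, against 8.64% and 6.26%. The lower gene was Cdkn1c, a growth-restraining inhibitor of cyclin-dependent kinases expressed from the maternal chromosome, at 5.61 FPKM in Drosha-deficient and 15.7 FPKM in wild-type mRNA and at 4.35 FPKM in Drosha-deficient and 10.6 FPKM in wild-type long RNA. Its log2 differences were -1.33 and -1.12. Kcnq1ot1, the paternally expressed non-coding RNA that starts in the marked region of the Cdkn1c domain, had 6.40 FPKM in Drosha-deficient and 2.997 FPKM in wild-type long RNA, a log2 difference of 0.89 that was not called. Impact, which inhibits the kinase GCN2, had 84.6 FPKM in Drosha-deficient and 57.2 FPKM in wild-type mRNA, and Zrsr1, a splicing factor gene that arose by retrotransposition, had 5.95 FPKM in Drosha-deficient and 4.76 FPKM in wild-type mRNA. Slc38a4, an amino acid transporter gene, had 53.5 FPKM in Drosha-deficient and 60.7 FPKM in wild-type mRNA. Airn, the paternal antisense RNA of Igf2r, stayed under 1 FPKM in both genotypes in long RNA, while Igf2r, the receptor that clears IGF2, had 20.2 FPKM in Drosha-deficient and 18.3 FPKM in wild-type mRNA and was not called.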
